A study of Mus musculus with 9 samples.

Results

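Genes for the coat and fat-storage proteins of lipid droplets were followed in mouse livers that lacked the nuclear receptor corepressor SMRT, or SMRT together with its relative NCoR. The set held 10 genes chosen by symbol, with earlier results of these data known, out of 22180 genes on the array. The genes were Plin2, Plin3, Plin4, Plin5, Cidea, Cidec, Fitm1, Fitm2, G0s2 and Hilpda. They were measured by 12 of the 41345 probe sets in the table. Each gene was read from the probe set with the highest mean over the 9 arrays, and Fitm1 and G0s2, which each had a further probe set, are shown with both. Total RNA was taken from 3 livers per group, 1 Affymetrix whole-transcript array per mouse. Control mice carried floxed alleles of both corepressor genes (SMRT and NCoR fl/fl) with no deletion named in the labels. SMRT KO mice had a liver-specific deletion of SMRT, and double KO mice (SMRT and NCoR KO) a liver-specific deletion of both. All 9 mice were euthyroid females aged 7 to 9 weeks on standard chow, with food and water freely available, on a 129SV/B6 mixed background. The labels name no Cre line, give no NCoR allele for the SMRT KO mice, and include no group lacking NCoR alone.

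Lipid droplets are stores of triglyceride and sterol ester inside a single layer of phospholipid. Perilipins coat that surface and control access of lipases, CIDE proteins let small droplets pass fat to larger ones, and FIT proteins of the endoplasmic reticulum help droplets form. G0S2 and HILPDA bind and inhibit ATGL, the lipase encoded by Pnpla2 that begins triglyceride breakdown. Several of these genes are known targets of the PPAR nuclear receptors, whose silent state corepressors help to maintain.

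Values below are the authors' RMA-normalized log2 expression values, in which 1 unit is a 2-fold difference. Errors of group means are standard deviations (SD, n = 3 mice), errors of differences are standard errors (SE), and a gene was called where its limma p, adjusted over all 22180 genes of a comparison, lay below 0.05. The 8 hepatocyte markers, Alb among them, had array means of 12.71 to 12.77 in control, 12.68 to 12.75 in SMRT KO and 12.57 to 12.61 in double KO livers, with 0 of 8 called by limma in any comparison. In double KO livers 7 of 8 lay below control and 6 of 8 below SMRT KO in the mean. In each comparison 3 of 8 had an unadjusted p under 0.05, beside 10.8% and 10.5% of all genes. As a guide to background, 95% of 1394 olfactory and vomeronasal receptor genes had group means below 5.94 to 6.06. White adipocyte markers averaged 6.01 to 6.31 in control, 5.94 to 6.01 in SMRT KO and 5.99 to 6.03 in double KO livers over the 6 measured. Adipoq and Lep lay below the receptor level in every group, and the other 4 of 6, Plin1, Retn, Fabp4 and Aqp7, above it. By limma 0 of 6 were called in any comparison. Against control 4 of 6 lay below 0 in SMRT KO and 5 of 6 in double KO livers. Fabp4 was among them at -0.68 in both, and Aqp7 had 0.35 in double KO livers. Skeletal muscle markers averaged 5.41 to 5.48 in control, 5.49 to 5.54 in SMRT KO and 5.42 to 5.57 in double KO livers, with 3 of 6 above the receptor level. Arrays of the same group correlated at 0.987 to 0.992 over the probe sets and arrays of different groups at 0.983 to 0.989, and 0 of 36 pairs held identical values.

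Plin2 and Fitm1 rose in double KO livers and the other 8 genes did not pass the test. Against control, Plin2 was 1.56-fold and Fitm1 2.07-fold higher. Against SMRT KO livers, Plin2 alone passed, at 1.84-fold. In SMRT KO against control livers 0 of the 10 genes passed by limma, and 1 of them, Plin2, had an unadjusted p under 0.05. The share of all genes called was 0.843% in double KO against control, 1.19% in double KO against SMRT KO and 0.00451% in SMRT KO against control. Genes called higher made up 0.523% and 0.748% of all genes in the double KO comparisons, and those called lower 0.320% and 0.437%. A lower or higher value in a whole-liver sample cannot tell fewer cells of a type apart from less RNA per cell.

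Most of the 10 genes had a higher mean in double KO livers than in controls. Most, though not the same genes throughout, had a lower mean in SMRT KO livers than in controls. Fitm1 was higher than control in both, by 0.24 in SMRT KO livers (SE 0.17). The counts go by sign alone. They include SMRT KO differences within 1 SE of 0, such as Plin4 (-0.01, SE 0.20) and Hilpda (-0.05, SE 0.07). In double KO against control livers 8 of 10 log2 fold changes lay above 0, with a median of 0.23, beside 51.3% and 0.0036 over all genes. In SMRT KO against control livers 2 of 10 lay above 0, with a median of -0.10, beside 50.4% and 0.0009. Both comparisons share the 3 control livers, and the difference between them was not tested over the genes as a group. In double KO against SMRT KO livers 9 of 10 lay above 0, with a median of 0.42, beside 50.6% and 0.0017.

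**Figure D1:**
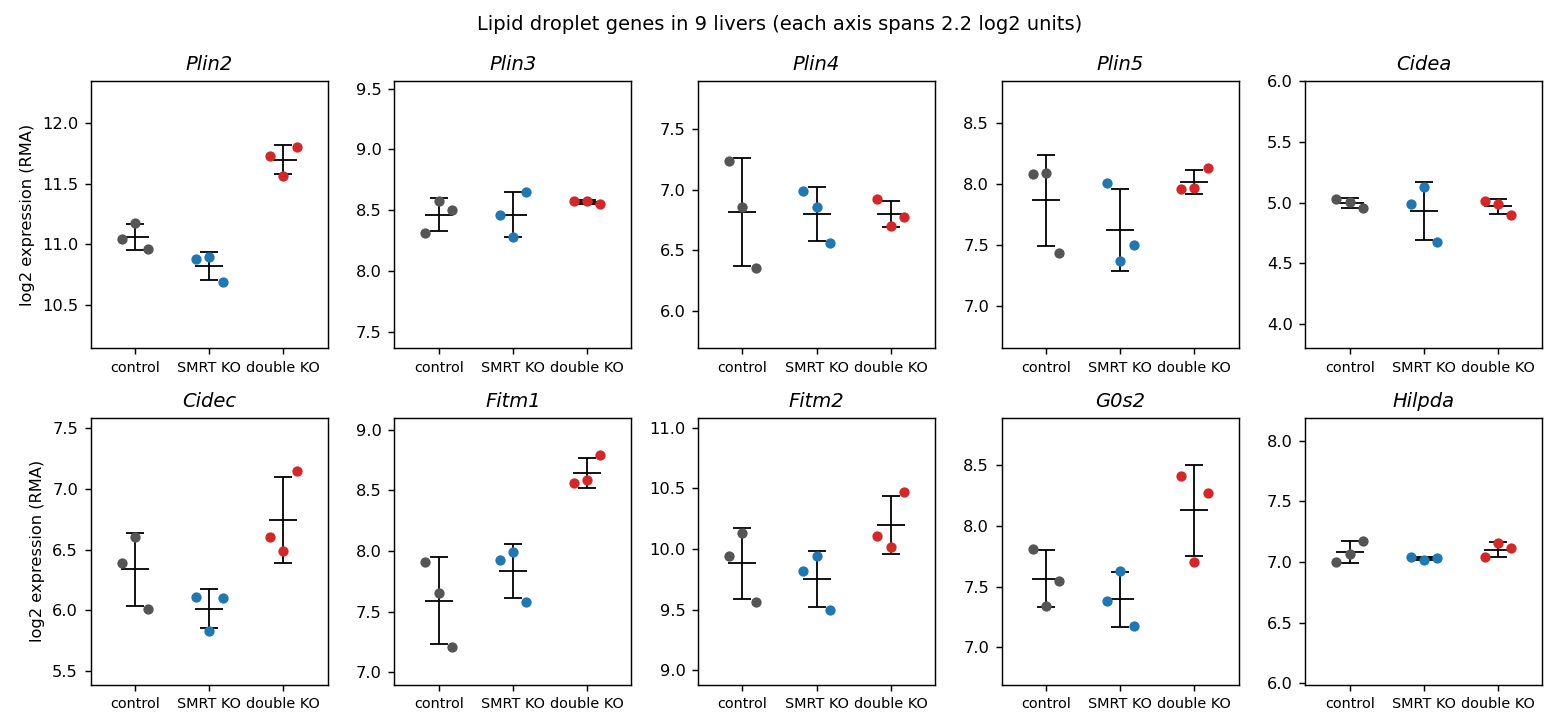
Log2 expression of the 10 genes in each liver, by group; points are mice in replicate order, the middle bar is the group mean and the whiskers are 1 SD (n = 3). Every panel spans the same height, and Plin2 and Fitm1 have all 3 double KO points above all control and SMRT KO points.

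Plin2 encodes the main perilipin of the hepatocyte droplet, a protein that is stable only while bound to fat. Its log2 values were 11.05, 11.18 and 10.96 in control livers 1 to 3, 10.88, 10.90 and 10.69 in SMRT KO livers, and 11.73, 11.57 and 11.80 in double KO livers. The 3 groups did not overlap: all SMRT KO livers lay below all controls, and all double KO livers above both. The group means were 11.06 ± 0.11, 10.82 ± 0.12 and 11.70 ± 0.12. The double KO mean was higher than control by 0.64 (SE 0.09, adjusted p = 0.016) and higher than SMRT KO by 0.88 (SE 0.09, adjusted p = 0.00323). The SMRT KO mean differed from control by -0.24 (SE 0.09, 95% interval -0.45 to -0.03), with an unadjusted p of 0.0277 and an adjusted p of 0.826. Groups failed to overlap in 8.16% of all genes in that comparison, in 15.0% for double KO against control and in 13.8% for double KO against SMRT KO. The call against SMRT KO held without each mouse in turn. The call against control was lost without control replicate 1 (adjusted p = 0.063), control replicate 3 (0.0679), double KO replicate 1 (0.0694) or double KO replicate 3 (0.0643), while the log2 fold change stayed between 0.59 and 0.70.

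Because Plin2 passed in both double KO comparisons, the start of its RefSeq promoter window (build GRCm38.p6) is shown, limited to the 92 bases that precede its gene model. Capitals mark a near match, on the reverse strand, to the direct repeat called DR1, in which AGGTCA stands 2 times in a row with a spacer of 1 base, and which PPAR with RXR, and also HNF4A, are known to bind. With the second sequence, capitals mark the palindrome CACGTG, the E-box core bound by MYC, USF, clock and related proteins, in 30 bases around the start site used by the window.
Plin2 upstream, chr4:86670218-86670309, minus strand: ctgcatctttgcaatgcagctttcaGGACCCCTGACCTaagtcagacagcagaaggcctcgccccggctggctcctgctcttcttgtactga
Plin2 start site, chr4:86670046-86670075, minus strand: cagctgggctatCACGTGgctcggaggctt
The near repeat began at position -225 and CACGTG at position -4 of the window's start site. The repeat differed from DR1 at 2 letters outside the spacer. A DR1 with at most 2 differing letters was found, on either strand, in 3.86% of 32851 RefSeq windows of 300 bases, and an exact DR1 in 0.0396%. CACGTG was found in 7.15% of windows. These are matches of letters, with no measurement of binding.

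Fitm1 encodes a FIT protein best known from skeletal and heart muscle, which binds triglyceride and favours droplet formation. Its log2 values were 7.91, 7.65 and 7.21 in control livers 1 to 3, 7.93, 7.99 and 7.58 in SMRT KO livers, and 8.56, 8.58 and 8.79 in double KO livers. The lowest double KO liver lay above the highest of the other 6, while control and SMRT KO livers overlapped. The means were 7.59 ± 0.36, 7.83 ± 0.22 and 8.64 ± 0.13. Double KO was higher than control by 1.05 (SE 0.17, adjusted p = 0.0276) and differed from SMRT KO by 0.81 (SE 0.17, 95% interval 0.42 to 1.20, adjusted p = 0.0704). The SMRT KO mean differed from control by 0.24 (SE 0.17, adjusted p = 0.909).

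The further probe set of Fitm1 gave much smaller differences. Its values were 6.51, 6.39 and 6.52 in control, 6.47, 6.50 and 6.52 in SMRT KO and 6.69, 6.74 and 6.57 in double KO livers. Here too the 3 double KO livers lay above the other 6, with a log2 fold change against control of 0.19 (95% interval 0.04 to 0.35, adjusted p = 0.317 over 25335 listed probe sets). With both probe sets averaged, the change against control was 0.62 (adjusted p = 0.0176) and that against SMRT KO 0.49 (adjusted p = 0.0408), so that the second comparison passed as well. The call against control was lost with only the 2 groups in the fit (adjusted p = 0.0786), without control replicate 2 (0.0645) or 3 (0.0595), without SMRT KO replicate 1 (0.0524), and without double KO replicate 1 (0.0845), 2 (0.112) or 3 (0.107). The call against SMRT KO was gained without control replicate 1 (adjusted p = 0.0484) or 3 (0.0313). The muscle markers Acta1, Ckm, Myh1, Myh4, Tnnt3 and Mylpf differed between double KO and control by -0.06 to 0.16, with 0 of 6 called by limma and 0 at an unadjusted p under 0.05.

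The 250 bases upstream of Fitm1 (RefSeq, GRCm38.p6) are given for comparison with Plin2, since these 2 genes rose together against control. None of the letter patterns searched was found there, and so nothing is in capitals; besides those named above, these were ACGTG, which lies inside CACGTG and is the core of the hypoxia response element, TATAAA, and DR4, the repeat of AGGTCA with a spacer of 4 bases known to bind thyroid hormone receptor and LXR, all on both strands.
Fitm1 upstream, chr14:55575424-55575673, plus strand: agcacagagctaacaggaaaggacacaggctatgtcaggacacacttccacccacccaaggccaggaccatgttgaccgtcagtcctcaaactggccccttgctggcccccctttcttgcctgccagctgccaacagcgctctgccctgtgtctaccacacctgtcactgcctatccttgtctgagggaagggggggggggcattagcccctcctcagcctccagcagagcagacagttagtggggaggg
Among the 12 windows of the 9 genes matched in the table, ACGTG was found in Plin2 and Hilpda (19.6% of all windows) and a DR4 with 2 differing letters in Plin5 (at most 2 differ in 3.02% of all windows, and none in 0.0152%). TATAAA was found in 0 of the 12, against 13.6% of all windows. No window of Cidea was used.

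**Figure D2:**
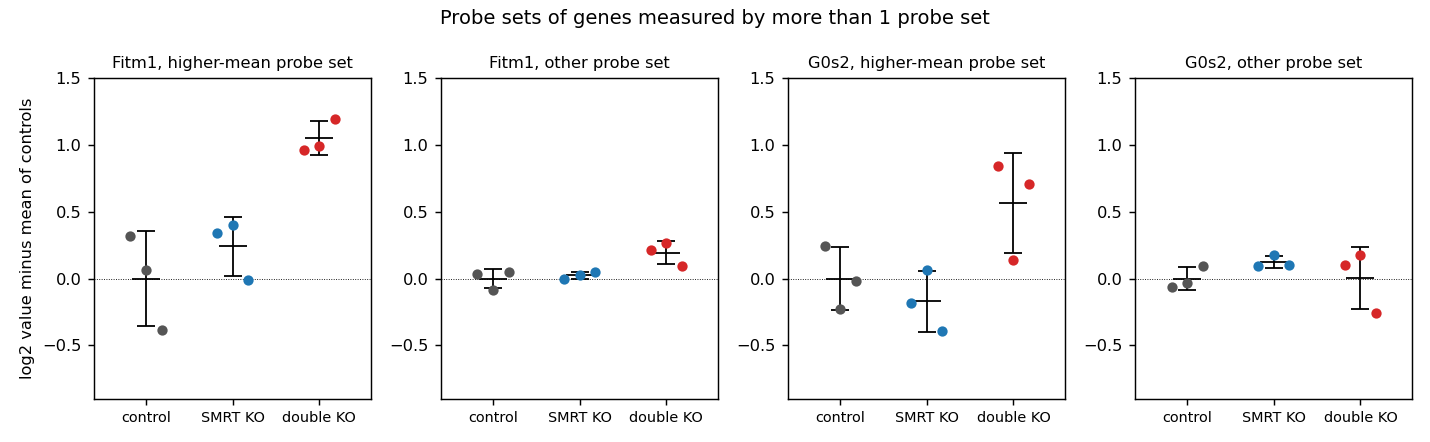
Log2 value of each liver minus the mean of the 3 controls, for both probe sets of Fitm1 and of G0s2; points are mice, the middle bar is the group mean and the whiskers are 1 SD. For Fitm1 the double KO livers lie highest in both probe sets, by 1.05 and 0.19 on average, whereas for G0s2 only the probe set with the higher mean separates them from SMRT KO.

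The other perilipins gave no call in any comparison. Plin3, a perilipin of small and newly made droplets that is otherwise cytosolic, measured 8.46 ± 0.14 in control, 8.46 ± 0.19 in SMRT KO and 8.57 ± 0.02 in double KO livers, and its 9 values ran from 8.28 to 8.65, with overlapping groups. Its log2 fold change in double KO against control was 0.11 with a 95% interval of -0.12 to 0.34, which leaves out a change as large as that of Plin2. Plin4, a perilipin of nascent droplets best known from fat and muscle, measured 6.81 ± 0.44, 6.80 ± 0.22 and 6.80 ± 0.11. Its 3 controls, at 7.24, 6.86 and 6.35, spanned all 6 knockout values, and the interval for double KO against control was -0.46 to 0.43.

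Plin5, which ties droplets to mitochondria in tissues that burn fat, overlapped between all groups. Its log2 values were 8.08, 8.09 and 7.43 in control, 8.01, 7.37 and 7.50 in SMRT KO and 7.96, 7.96 and 8.13 in double KO livers. Low values were found in control replicate 3 and in SMRT KO replicates 2 and 3, and none of the double KO livers was low. The log2 fold change was 0.39 (SE 0.20, adjusted p = 0.564) for double KO against SMRT KO and 0.15 (SE 0.20, adjusted p = 0.861) against control. Plin4 and Plin5 are next to each other on chromosome 17 in the RefSeq gene table, and Plin3 lies on the same chromosome with other genes between.

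Cideb was not analysed here, so the CIDE genes followed were Cidea and Cidec. Of these, Cidec, whose protein FSP27 drives the growth of large droplets and is known to accumulate in fatty liver, showed the wider spread. Its log2 values were 6.39, 6.61 and 6.01 in control, 6.11, 5.83 and 6.11 in SMRT KO and 6.60, 6.49 and 7.15 in double KO livers. All 3 double KO livers lay above all 3 SMRT KO livers and overlapped with the controls. Double KO differed from SMRT KO by 0.73 (SE 0.19, 95% interval 0.30 to 1.16) at an unadjusted p of 0.0039 and an adjusted p of 0.149, and from control by 0.41 (SE 0.19, adjusted p = 0.497). SMRT KO differed from control by -0.32 (SE 0.19, adjusted p = 0.906). The SMRT KO mean, 6.01, was close to the receptor level of 5.97 in these livers. The sizes of both differences that involve SMRT KO livers therefore rest on values near background. Control replicate 3, at 6.01, lay below the receptor level of 6.06 in controls.

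Cidea, the CIDE protein of brown fat that is also found in fat-laden liver, was not shown to be above background in any group. Its means were 5.00 ± 0.04, 4.93 ± 0.24 and 4.97 ± 0.06, all below the receptor level. Its log2 fold changes lay between -0.06 and 0.04 over the 3 comparisons.

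Fitm2, the FIT protein found in most tissues, measured 9.95, 10.13 and 9.56 in control, 9.82, 9.95 and 9.49 in SMRT KO and 10.11, 10.02 and 10.47 in double KO livers. Its double KO livers lay above all SMRT KO livers and overlapped with the controls. The difference from SMRT KO was 0.44 (SE 0.18, unadjusted p = 0.031, adjusted p = 0.402) and that from control 0.32 (SE 0.18, adjusted p = 0.579). The 95% intervals of these differences were 0.05 to 0.84 and -0.08 to 0.71. Whether the double KO effect differed between Fitm1 and Fitm2 was not tested.

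G0s2, the inhibitor of ATGL that is abundant in liver and fat, had log2 values of 7.81, 7.34 and 7.55 in control, 7.38, 7.63 and 7.17 in SMRT KO and 8.41, 7.70 and 8.27 in double KO livers. Double KO replicates 1 and 3 were the highest of the 9, and double KO replicate 2 fell within the range of the controls. The difference was 0.56 against control (SE 0.20, unadjusted p = 0.0172, adjusted p = 0.312) and 0.73 against SMRT KO (SE 0.20, unadjusted p = 0.00416, adjusted p = 0.153). Without double KO replicate 2 these became 0.78 (adjusted p = 0.154) and 0.95 (adjusted p = 0.0672). The further probe set of G0s2, whose 9 values of 5.54 to 5.97 lay near the receptor level, gave 0.01 against control and -0.12 against SMRT KO. The probe sets thus disagree in direction for the second comparison. They also disagree in SMRT KO against control, with -0.17 for the higher-mean probe set and 0.12 for the further one.

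Hilpda, an inhibitor of ATGL induced by hypoxia and by fatty acids, was the most even of the 10 genes, with a pooled SD within groups of 0.06. Its 9 values ran from 7.00 to 7.18. Double KO livers lay above SMRT KO livers, though the nearest values both rounded to 7.04, and the means differed by 0.07 (95% interval -0.07 to 0.22, adjusted p = 0.788). Against control the interval was -0.13 to 0.17.

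**Figure D3:**
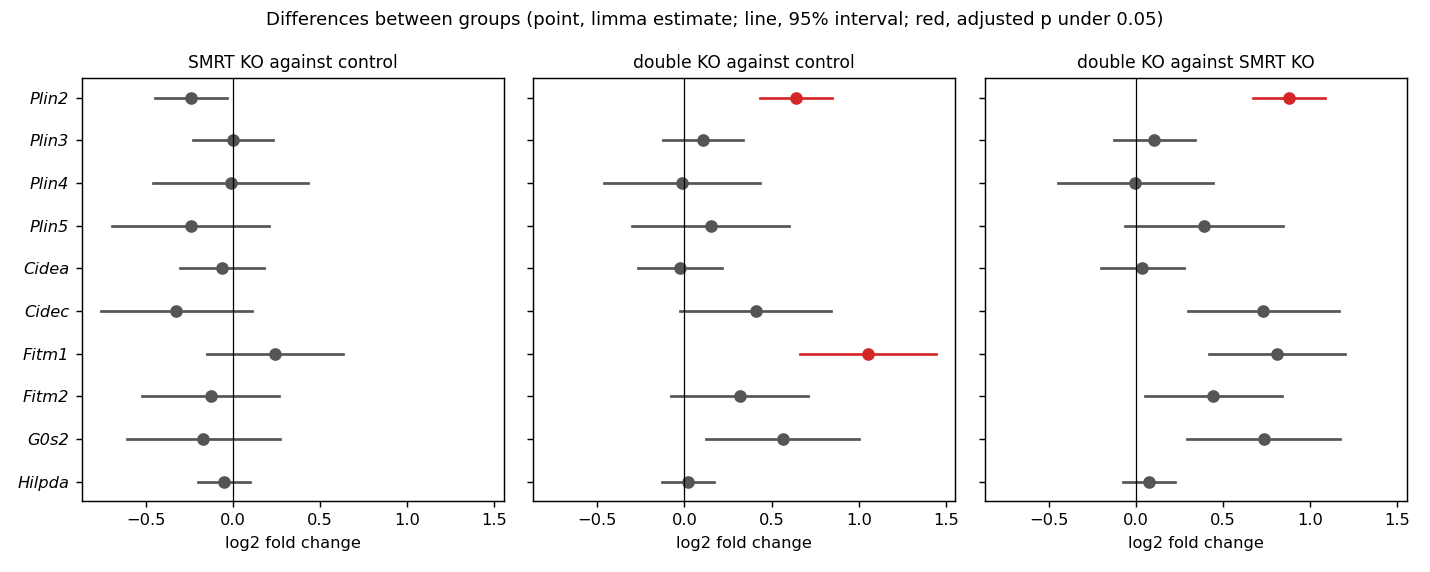
Log2 fold change of each gene in the 3 comparisons, as the limma estimate with its 95% interval; red marks an adjusted p under 0.05. In double KO against SMRT KO the intervals of Plin2, Cidec, Fitm1, Fitm2 and G0s2 lie above 0 before adjustment, and Plin2 is the gene that passes after it.

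The double KO and SMRT KO livers did not overlap for 6 of the 10 genes, all higher in double KO, where this held for 7.54% of all genes, with a further 6.21% lower. The 6 were Plin2, Cidec, Fitm1, Fitm2, G0s2 and Hilpda, the last by a margin lost in rounding. The double KO and control livers did not overlap for Plin2 and Fitm1, both higher, where this held for 7.73% of all genes, with a further 7.25% lower. For SMRT KO against control it was Plin2, which was lower, where this held for 4.36% of all genes, with a further 3.80% higher. At an unadjusted p under 0.05 the counts were 5, 3 and 1 of 10, beside 10.5%, 10.8% and 6.00% of all genes. Because the 10 genes were chosen with earlier results of these data known, these counts are a description and no independent test.

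Some mice were low for many of the genes at once. Control replicate 3 had the lowest control value for 7 of the 10 genes, with a median deviation of -0.21 from the control mean, and SMRT KO replicate 3 the lowest of its group for 6, with a median deviation of -0.18. Double KO replicate 3 was highest of its group for 5. The pooled SD within groups was 0.25 to 0.30 for Plin4, Plin5, Cidec, Fitm1, Fitm2 and G0s2, above that of 93.5% to 96.4% of all genes, and 0.12 for Plin2, close to the median of 0.12 over all genes. The SE of a difference was 0.17 to 0.20 for those 6 genes and 0.09 for Plin2.

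Markers of other liver cells were compared beside these results. The 8 Kupffer cell and macrophage markers had array means of 8.36 to 8.57 in control, 8.54 to 8.81 in SMRT KO and 8.36 to 8.53 in double KO livers. By limma 0 were called in any comparison. In SMRT KO against control all 8 differences lay above 0, and 3 had an unadjusted p under 0.05, beside 6.00% of all genes. In double KO against SMRT KO all 8 lay below 0, with a median of -0.21. Again 3 had an unadjusted p under 0.05, beside 10.5% of all genes. The 8 stellate cell markers averaged 9.16 to 9.45, 9.21 to 9.52 and 8.76 to 9.13, and Lrat, the retinol-storing enzyme among them, fell by 1.80 in double KO against control (adjusted p = 0.000397) and fell by 1.91 against SMRT KO (adjusted p = 0.000391), while the other 7 were not called. In the mean 7 of the 8 lay below control and 8 of 8 below SMRT KO, among them Rgs5 at -0.77 and -0.72 (adjusted p = 0.164 and 0.174), whose double KO livers lay below all others. All 8 markers of both lists were above the receptor level in every group. Of the 5 brown adipocyte markers, which include Cidea, 2 were above it. Of these Elovl3 was called in double KO against SMRT KO (2.89, adjusted p = 0.0473), and Ppargc1a differed by -1.07 (adjusted p = 0.0889), its groups not overlapping. Ucp1 lay below the receptor level, and the array means were 6.53 to 6.85 in control, 6.27 to 6.69 in SMRT KO and 6.66 to 6.97 in double KO livers. The part of these cells in the droplet gene values was not tested.

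Among the lipases and their partners, which remove what the droplet stores, Pnpla3 rose. Of 9 lipolysis genes 1 rose in double KO against control and 8 did not pass, with a median of 0.21, 8 of 9 above 0 and 5 at an unadjusted p under 0.05. Against SMRT KO 9 of 9 lay above 0, again with 5 at an unadjusted p under 0.05. Pnpla3, a droplet-bound relative of ATGL, rose 13.2-fold against control (adjusted p = 1.66e-05) and 9.32-fold against SMRT KO (adjusted p = 6.3e-05), and no alternative ended either call. Pnpla2, which encodes ATGL itself, differed by 0.24 (adjusted p = 0.485) and Abhd5, its activator, by 0.26 (adjusted p = 0.344). Of 12 measured genes of droplet formation and growth and of 9 other droplet proteins 0 were called by limma in double KO against control, with medians of -0.01 in both, and 5 and 2 had an unadjusted p under 0.05. Against SMRT KO the counts were also 0, with 4 in each list at an unadjusted p under 0.05. Over all genes 10.8% had such a p against control and 10.5% against SMRT KO, and 0.843% and 1.19% were called. The formation list held differences of both signs against control, 6 above and 6 below 0. Gpam and Agpat2, acyltransferases of glycerolipid synthesis, had 0.36 (adjusted p = 0.092) and 0.56 (adjusted p = 0.198), with all double KO livers above all controls. Lpin1, the phosphatidate phosphatase, had -1.19 (adjusted p = 0.13) and passed with only the 2 groups in the fit or without SMRT KO replicate 1. Dgat2 had -0.25 (adjusted p = 0.185), and its double KO livers, like those of Lpin1, lay below all controls. Double KO livers lay above all controls for 4 formation genes and below for 3, beside 7.73% and 7.25% of all genes. Of the other droplet proteins 4 lay above and 5 below 0. Among these, Hsd17b13 had -0.20 (adjusted p = 0.381), its double KO livers below all controls. Plin1, the perilipin of white fat, differed by -0.12 (adjusted p = 0.727).

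Among 14 regulators of these genes, Mlxipl and Pparg rose in double KO against control and 12 did not pass. The median was -0.05, and 7 of 14 had an unadjusted p under 0.05, beside 10.8% of all genes. Among those that did not pass, Ppargc1a, the coactivator PGC-1 alpha, had -0.94 (adjusted p = 0.159), its double KO livers below all controls, and Srebf1, the lipogenic factor, 0.62 (adjusted p = 0.23), its double KO livers above all controls. Mlxipl, which encodes the glucose-responsive lipogenic factor ChREBP, was higher by 0.68 (SE 0.09, adjusted p = 0.0129). Pparg, the fat-storage PPAR, had means of 8.07 in control, 8.63 in SMRT KO and 8.60 in double KO livers. It was higher by 0.52 in double KO (adjusted p = 0.0346) and differed by 0.56 in SMRT KO (adjusted p = 0.223), where it passed without control replicate 2. Plin2 was lower than control in the mean in SMRT KO livers (not called) and higher in double KO livers. Whether Plin2 follows Pparg was not tested. Ppara, the main PPAR of hepatocytes, differed by 0.002 in double KO (adjusted p = 0.997). Pparg was not called with the replicate block, with only the 2 groups, or without control replicate 1 or 3, SMRT KO replicate 1 or 3, or any 1 double KO replicate. Mlxipl was not called without double KO replicate 1 or 2, which left a count of 0.

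Targets of the PPARs outside the 10 genes were read from lists assembled with earlier results of these data known. Of 11 measured PPAR alpha targets 4 rose in double KO against control, where 0.523% of all genes were called higher. They were Pdk4 (5.13-fold), Acot1 (4.01-fold), Ehhadh (3.02-fold) and Acaa1b (2.52-fold). The other 7 did not pass, among them Cpt1a at -0.11. The median was 0.51, with 7 of 11 above 0 and 6 at an unadjusted p under 0.05, beside 10.8% of all genes. The same 4 genes rose against SMRT KO. Without double KO replicate 1, 2 or 3 the count against control was 2, Acot1 and Ehhadh. Of 7 measured fat-storage genes linked to PPAR gamma 3 rose against control, Lpl (3.49-fold), Cd36 (2.48-fold) and Pparg, with a median of 0.43, and Lpl alone rose against SMRT KO. Without double KO replicate 2 or 3 the count against control was 1, Cd36. Of the 4 genes of this list that did not pass against control, Fabp4 had -0.68 (adjusted p = 0.251), Mogat1 0.43 (adjusted p = 0.206) and Aqp7 0.35 (adjusted p = 0.312). Adipoq lay below the receptor level in every group, as did Mogat1 in control and SMRT KO livers. In all 5 of 7 lay above 0 and 6 had an unadjusted p under 0.05. In SMRT KO against control livers 0 genes of the 6 lists were called by limma, and the list medians lay between -0.06 and 0.05. At most 3 genes of a list had an unadjusted p under 0.05, beside 6.00% of all genes.

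**Figure D4:**
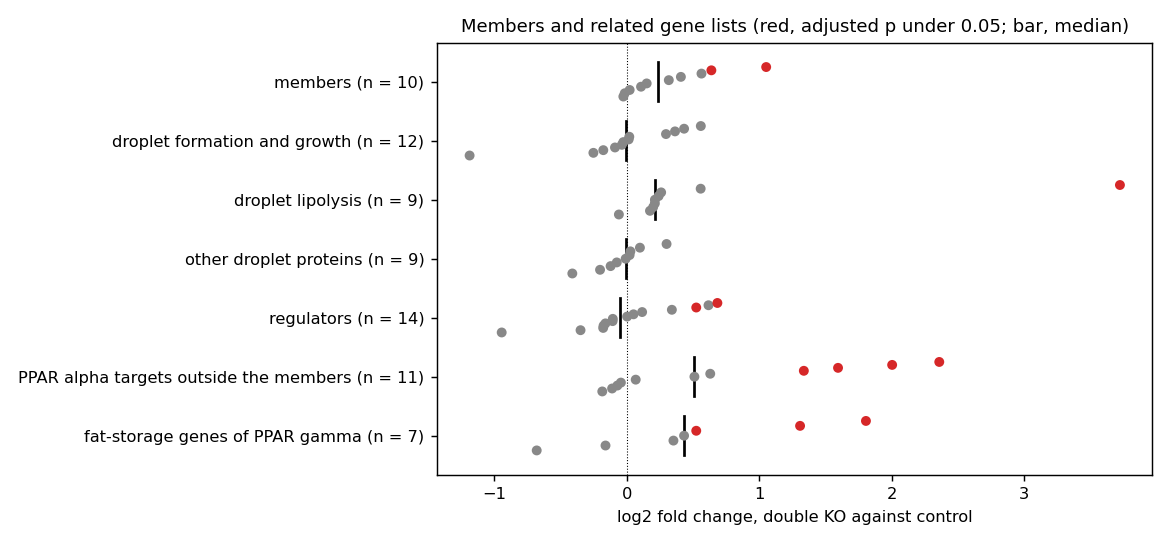
Log2 fold change in double KO against control livers for the 10 genes (members) and 6 related lists; each point is a gene, red marks an adjusted p under 0.05 and the black bar is the median of the list. The medians run from -0.05 for the regulators to 0.51 for the PPAR alpha targets, and the 10 genes have a median of 0.23.

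The genes whose profile over the 9 livers lay nearest to Plin2 were Sel1l3, Hdac5 and Uck1. Likeness was measured as the root mean square difference of log2 values after each gene was centred on its own mean, and was 0.09, 0.10 and 0.10 for these genes, against a root mean square of 0.38 of Plin2 about its own mean. Sel1l3 had means of 8.28 in control, 7.90 in SMRT KO and 8.80 in double KO livers, the same order of groups as Plin2. For Fitm1 the nearest genes were Prrg4 (0.19), Sult2a4 (0.19) and Pla2g6 (0.21), against 0.50 for Fitm1 about its own mean.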

How the data were processed

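Liver RNA of 9 mice (200 ng each) was measured on 1 array per mouse. The authors deposited log2 values, and the submitters' processing notes name RMA, with version and settings not given in the sources used here. RMA commonly includes quantile normalization, which can hide a shift common to most genes. Columns were matched to samples by name, with 0 left over. Array medians were 5.96 to 6.02; arrays carry no read depth, and their number limits the precision. The annotation gave 1 symbol to 23521 of 41345 probe sets, several to 1814, and did not list 16010. Probe sets with 1 symbol were kept, the highest-mean one per gene, which gave 22180 genes, dim ones included. Whether each mouse carried its labelled genotype was not checked here.

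Tests were two-sided and came from limma 3.58.1 (lmFit and eBayes, R 4.3.3), with 1 model over the 9 arrays, with 6 residual and 3.36 prior degrees of freedom and Benjamini-Hochberg adjustment over genes within each comparison. An exact permutation test of 3 against 3 cannot go below p = 0.1 and was not used. The series design names 3 individual mice per group. The fit was tested on simulated data with 200 changed genes. It recovered 54.5% to 62% of 1.5-fold changes and 92% to 94.5% of 2-fold changes over the 3 comparisons, so smaller changes were often missed. The changed genes were drawn at random from all genes, whose median pooled SD was 0.12. Plin4, Plin5, Cidec, Fitm1, Fitm2 and G0s2 had pooled SDs of 0.25 to 0.30, so these shares do not apply to them. With 200 planted changes the adjusted threshold is also easier to reach than in SMRT KO against control, where 1 gene was called. The members, lists and motifs were chosen with earlier results of these data known. All 10 members are described in every comparison, with list genes that passed, at most 5 per list, and the 3 genes of nearest profile for each member called in double KO against control; other list genes and markers named were chosen after their values were seen. Alternatives were a filter on dim genes (mean below 5), eBayes with trend and robust, 2 groups only, the replicate number as a block, cyclic loess, probe set averages, all listed probe sets, array weights and leaving out each mouse. Some genes of the lists were not analysed here. RefSeq promoter windows matched 9 of the 10 members.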

Additional observations from a re-analysis of the deposited data

How the results depend on the processing

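The 10 genes had 30 log2 fold changes. Those of Plin2, Fitm1, Cidec and G0s2 kept their direction in all 3 comparisons and all 17 alternatives. The further probe set of G0s2 was not an alternative on its own, and its differences in direction are given with the results. Where the calls of Plin2 and Fitm1 were lost is also given there. With only the 2 groups in the fit, 1 of the 10 genes was called in double KO against control, 1 of the formation genes, 1 of the regulators, and 0 regulators against SMRT KO. With all probe sets of a gene averaged, 2 of the 10 were called against SMRT KO. With genes of mean below 5 left out (which leaves out Cidea), with trend and robust, or with array weights, 2 fat-storage genes of PPAR gamma, Cd36 and Lpl, were called against SMRT KO. Array weights turned the sign of Plin3 (-0.0351) and Plin4 (0.14) in SMRT KO against control, and of Plin4 (0.10) and Hilpda (-0.0018) in double KO against control. Cyclic loess turned Plin4 in double KO against SMRT KO (0.0041). None of these was called.

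The replicate numbers gave no sign of pairing over all genes: deviations of same-numbered mice correlated at -0.08 to 0.12 and others at -0.15 to 0.16. A pairing that moves few genes could not be seen this way. With the replicate number as a block, Plin2 and Fitm1 stayed called against control (adjusted p = 0.045 for both), regulators fell from 2 to 1 called, and calls over all genes went from 187 to 152 and, against SMRT KO, from 263 to 195.

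With 1 mouse left out, the count of the 10 genes ran from 0 to 2 in double KO against control and from 1 to 2 against SMRT KO. In double KO against control the formation genes ran from 0 to 1, regulators from 0 to 2, PPAR alpha targets from 2 to 4 and PPAR gamma genes from 1 to 3. Against SMRT KO regulators ran from 0 to 1 and PPAR gamma genes from 0 to 2, and in SMRT KO against control both ran from 0 to 1, with Pparg called without control replicate 2 and Cd36 without control replicate 1. Mlxipl was lost against SMRT KO without SMRT KO replicate 3 or any 1 double KO replicate, and Lpl without SMRT KO replicate 1 or double KO replicate 2 or 3. Uncalled log2 fold changes that turned sign were Plin3 (-0.0927 to 0.0958), Plin4 (-0.24 to 0.20), Cidea (-0.16 to 0.0657) and Fitm2 (-0.29 to 0.0021) in SMRT KO against control. In double KO against control they were Plin4 (-0.25 to 0.19), Plin5 (-0.0668 to 0.26), Cidea (-0.0498 to 0.0083) and Hilpda (-0.0185 to 0.0685), and against SMRT KO Plin4 (-0.12 to 0.0921) and Cidea (-0.0919 to 0.14). With 3 mice a group, an uncalled gene is not shown to be unaltered, and values near the receptor level (such as Cidea, and Cidec in SMRT KO) limit what a difference can show.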
